A study of Mus musculus with 6 samples.

Results

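The 10 genes described here code for proteins that shape, coat, cut and uncoat membranes: the dynamins Dnm1 and Dnm2, the dynamin-related Dnm1l, the phosphatase synaptojanin 1 (Synj1), the Arf regulators Git1 and Git2, the clathrin light chains Clta and Cltb, the scaffold intersectin 1 (Itsn1) and amphiphysin 2 (Bin1). They were taken by gene symbol from the deposited table of splicing events, in which they held 128 of 45595 events and were 10 of 9594 genes. The cells were Neuro-2a (N2a), an established mouse neuroblastoma line, in 2 genotypes with 3 libraries each: wild type and hnRNP DL-/-, a knockout of the RNA-binding protein hnRNP DL. No other treatment is named, and how the knockout was made, or whether it is 1 clone, is not given in the sources used here. The study asked which exons are spliced differently without hnRNP DL. The table has columns for a first and a second sample of 3 libraries each, and no label or header says which is the knockout. They are called set 1 and set 2 here, every difference is set 1 minus set 2, and no genotype was read into either. The number of a library is only its place in the list. Nothing says that the libraries came from separate cultures, so p-values measure the spread between these libraries, which may be technical.

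In clathrin-mediated endocytosis a coat of clathrin heavy and light chains, held by adaptors, gathers cargo on the plasma membrane, banana-shaped proteins such as amphiphysin bend the membrane, and dynamin uses GTP to cut the neck of the bud. Synaptojanin then removes phosphates from the membrane's phosphoinositides, which lets the coat come off. Neurons use this route to take back synaptic vesicle membrane, and several of these genes are known to carry exons that neurons use and other cells skip. Dnm1l works elsewhere, where it constricts mitochondria and peroxisomes before they divide.

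Each event sets reads on the junctions of an inclusion form against reads on the junctions of a skipping form. The inclusion level, from 0 to 1, is the share of the inclusion form after each count is divided by the length of its form. Summed over events, in which a read can occur several times, the libraries of set 1 held 16707466, 14037425 and 13573870 junction reads and those of set 2 held 18185394, 14245004 and 13501749. Hnrnpdl itself had junction reads in all 6 libraries, counted on its best covered event and scaled to CPM, the count per 1000000 such reads of the library: 398.73, 427.79 and 432.02 CPM in set 1 and 468.72, 501.35 and 501.04 in set 2. Its log2 difference was -0.22 ± 0.09 (SE; limma, adjusted p = 0.392), and since the edited site is not given, these reads do not tell which set is the knockout. On the first principal component of the junction totals, which held 40.2% of the variance, library 1 of set 1 (-5.84) lay apart from the others of its set (18.35 and 22.0), while set 2 ran from -18.01 to -7.67. The second component held 26.7%, and on it library 1 was the lowest of each set. It stood at -18.88 beside -0.96 and -0.6 in set 1, and at -8.91 beside 12.6 and 16.76 in set 2. Of 18 neuroblastoma and neuron markers 7 were in the table, where a gene appears only with a listed event, so a missing marker says nothing of its level. Their summed junction reads were 774.9 to 1259.7 CPM in set 1 and 1272.3 to 1553.2 in set 2. Chgb, a granule protein of neuroendocrine cells, was lower in set 1 (log2 difference -1.01 ± 0.17 SE, limma adjusted p = 0.0132), and Gap43, a growth cone protein, stood at 408.6, 142.1 and 111.7 CPM in set 1 against 415.8, 403.2 and 278.1 in set 2. Gata2 was also lower in set 1, at 90.5, 95.5 and 90.6 CPM against 137.8, 128.7 and 120.9, without overlap. Isl1 (46.5, 33.6 and 24.1 against 44.3, 53.7 and 34.5) and Elavl3 (17.8, 21.8 and 21.4 against 24.4, 22.7 and 21.2) overlapped between the sets. The median log2 difference of the 7 was -0.365. Chga and Elavl4 did not go with these. Chga, a further granule protein, stood at 186.1, 164.9 and 179.7 CPM in set 1 and 167.3, 172.9 and 196.6 in set 2. Elavl4, a neuronal RNA-binding protein, stood at 135.2, 150.7 and 138.2 against 138.3, 146.5 and 132.0. The part of these differences in the results below was not tested. Of 17 markers of other cell types 3 were in the table (Cd68, Mbp and Pecam1), none with a mean count of 20 or more, and their sum was 1.2 to 4.9 CPM in every library.

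The 128 events were 95 skipped exons, 19 pairs of mutually exclusive exons, 8 alternative acceptors, 3 alternative donors and 3 retained introns. Bin1 and Dnm1 had 21 each, Git2 18, Dnm1l 17, Synj1 and Itsn1 14 each, Git1 8, Dnm2 7, Clta 6 and Cltb 2. The 106 with a mean of 20 or more reads over the 6 libraries were tested, and 22 were not. Of the 106, 52 had both set means above 0.95, 13 had both below 0.05, and 41 lay between or on either side of a bound. The sets were close for most of them: 94 differed by less than 0.05 and 4 by 0.10 or more, and the median absolute difference was 0.01 beside 0.0083 over all 39419 tested events. Where the rarer form had 20 or more reads, the medians were 0.0233 over 47 events of these genes and 0.0197 over 14011 of all genes.

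The authors' deposited table calls 3 of the 128 events (2.34%) at an adjusted p under 0.05 with a difference of 0.10 or more, beside 294 of 45595 events, or 0.645%, over all genes. They are exons of Git2 and Dnm1, higher in set 1, and of Synj1, lower in set 1. Without the minimum difference that table holds 5, adding exons of Dnm1l and Bin1, beside 1.13% over all genes. A moderated quasi-binomial test of the same counts, adjusted over all tested events by the Benjamini-Hochberg method, called none of the 106 and 11 events, or 0.0279%, over all genes. At an unadjusted p under 0.05 it gave 6 of the 106 (5.66%), beside 3.8% over all genes. Limma on logit levels called no event of any gene (0 of 39419), and gave an unadjusted p under 0.05 to 4 of the 106, beside 1300 events, or 3.3%, over all genes. All 3 libraries of a set lay above or all below the other set in 5 of the 106 (4.72%), 3 with set 1 higher and 2 with set 1 lower, beside 5.55% over all genes. The shares by the quasi-binomial test and by overlap were thus near those of the table, and the share of the authors' calls rests on 3 events. These genes were chosen with earlier results of the same data known, so that share is not a measure of an excess. Without library 1 of set 1 the 11 calls over all genes were 19, without library 2 of set 1 they were 2, and without library 2 of set 2 they were 5, while the 10 genes had none each time.

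**Figure D1:**
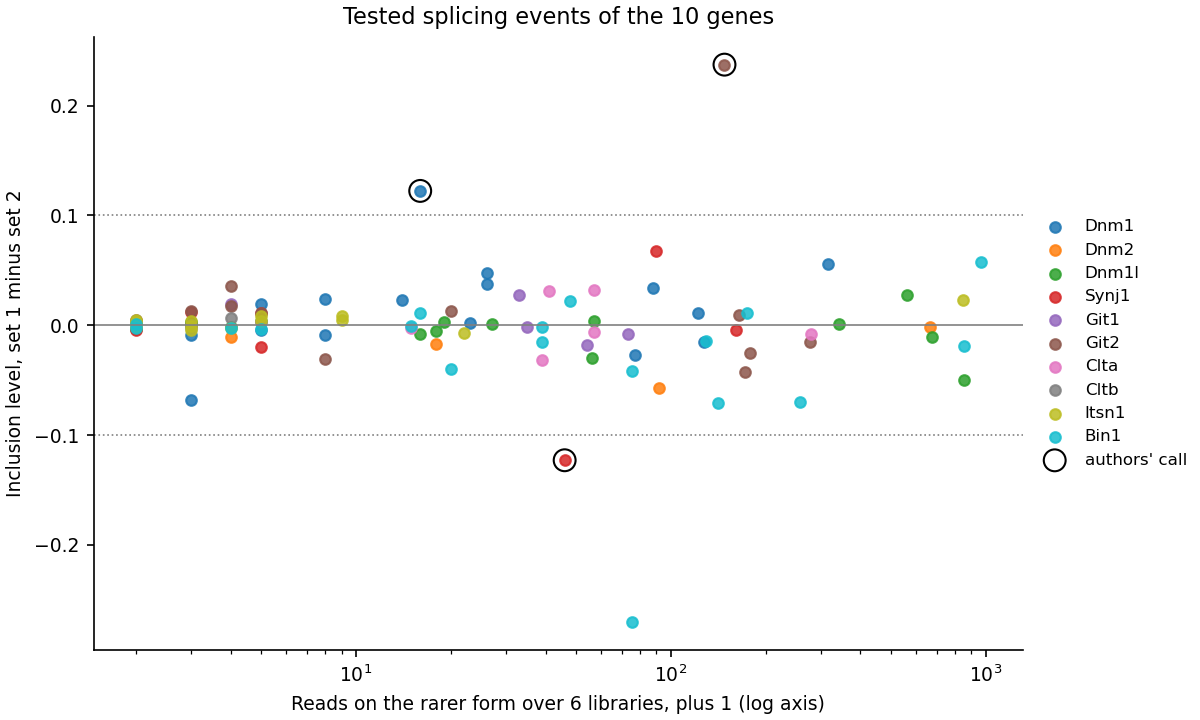
Difference in inclusion level (set 1 minus set 2) against the reads on the rarer form, plus 1, for the 106 tested events of the 10 genes, coloured by gene. Dotted lines mark 0.10 in either direction, circles mark the 3 calls of the authors' deposited table, and the lowest point, at -0.27, is a Bin1 exon whose libraries overlap.

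The dynamins cut the neck of the coated bud. Dnm1 is the main form in neurons and Dnm2 the form found in all tissues, and both genes have a pair of exons in the middle part of the protein of which a transcript takes either. In Dnm1 (chr2:32308471-32353338, minus strand, coordinates of build mm10 throughout) the pair lies at chr2:32334682-32334820 and chr2:32333066-32333204, and in Dnm2 (chr9:21424908-21507759, plus strand) at chr9:21478899-21479037 and chr9:21480407-21480545. All 4 exons are coding and 139 bases long. They are shown because Dnm1 and Dnm2 differed in which exon of the pair they took; capitals mark the bases that differ from the other exon of the same gene.
Dnm1 exon nearer the 5′ end: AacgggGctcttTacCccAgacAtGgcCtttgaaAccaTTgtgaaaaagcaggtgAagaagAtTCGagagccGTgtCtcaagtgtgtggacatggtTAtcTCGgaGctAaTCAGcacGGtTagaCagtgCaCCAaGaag
Dnm1 exon nearer the 3′ end: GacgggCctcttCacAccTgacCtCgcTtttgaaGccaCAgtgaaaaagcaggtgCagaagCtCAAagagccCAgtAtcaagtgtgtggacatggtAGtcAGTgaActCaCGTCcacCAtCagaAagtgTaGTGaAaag
Dnm2 exon nearer the 5′ end: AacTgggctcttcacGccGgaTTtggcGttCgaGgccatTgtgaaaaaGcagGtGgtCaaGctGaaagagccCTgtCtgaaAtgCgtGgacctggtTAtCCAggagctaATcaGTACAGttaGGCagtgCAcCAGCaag
Dnm2 exon nearer the 3′ end: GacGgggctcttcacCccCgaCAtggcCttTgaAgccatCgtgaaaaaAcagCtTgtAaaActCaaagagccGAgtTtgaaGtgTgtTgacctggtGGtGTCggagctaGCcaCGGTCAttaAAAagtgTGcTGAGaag
The exons of a pair share 100 of 139 bases in Dnm1 (71.9%) and 95 in Dnm2 (68.3%). Across the genes the exons nearer the 5′ end share 110 bases (79.1%) and those nearer the 3′ end 101 (72.7%), so that each exon is closer to its counterpart in the other gene than to its neighbour.

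Dnm1 took the exon nearer the 5′ end at levels of 0.937, 0.895 and 0.901 in set 1 and 0.918, 0.861 and 0.922 in set 2. In Dnm2 that exon stood at 0.514, 0.585 and 0.563 in set 1 and 0.467, 0.659 and 0.54 in set 2. Dnm1 thus lay above Dnm2 in each of the 6 libraries with no overlap, whereas the sets overlapped within each gene. The set means were 0.911 and 0.9 in Dnm1 (quasi-binomial p = 0.538) and 0.554 and 0.555 in Dnm2 (quasi-binomial p = 0.941).

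Further along, both dynamins have a 12-base coding exon, at chr2:32323179-32323190 in Dnm1 and chr9:21490658-21490669 in Dnm2, each 4 codons long. They are set side by side, with the bases that differ in capitals, because they match in place and length and share 8 of 12 bases (66.7%).
Dnm1 12-base exon: gATgagatTCtg
Dnm2 12-base exon: gGGgagatCTtg
Its level in Dnm1 was 0.933, 0.822 and 0.885 in set 1 and 0.995, 0.886 and 0.84 in set 2. In Dnm2 it was 0.783, 0.851 and 0.88 in set 1 and 0.866, 0.913 and 0.906 in set 2, with a difference of -0.06 (quasi-binomial p = 0.109, adjusted p = 0.746). The exon was therefore in most transcripts of both genes, and the ranges of the 2 genes and of the 2 sets overlapped. None of the 7 events of Dnm2 was called by either test or in the authors' deposited table, and their differences ran from -0.06 to 0.004.

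**Figure D2:**
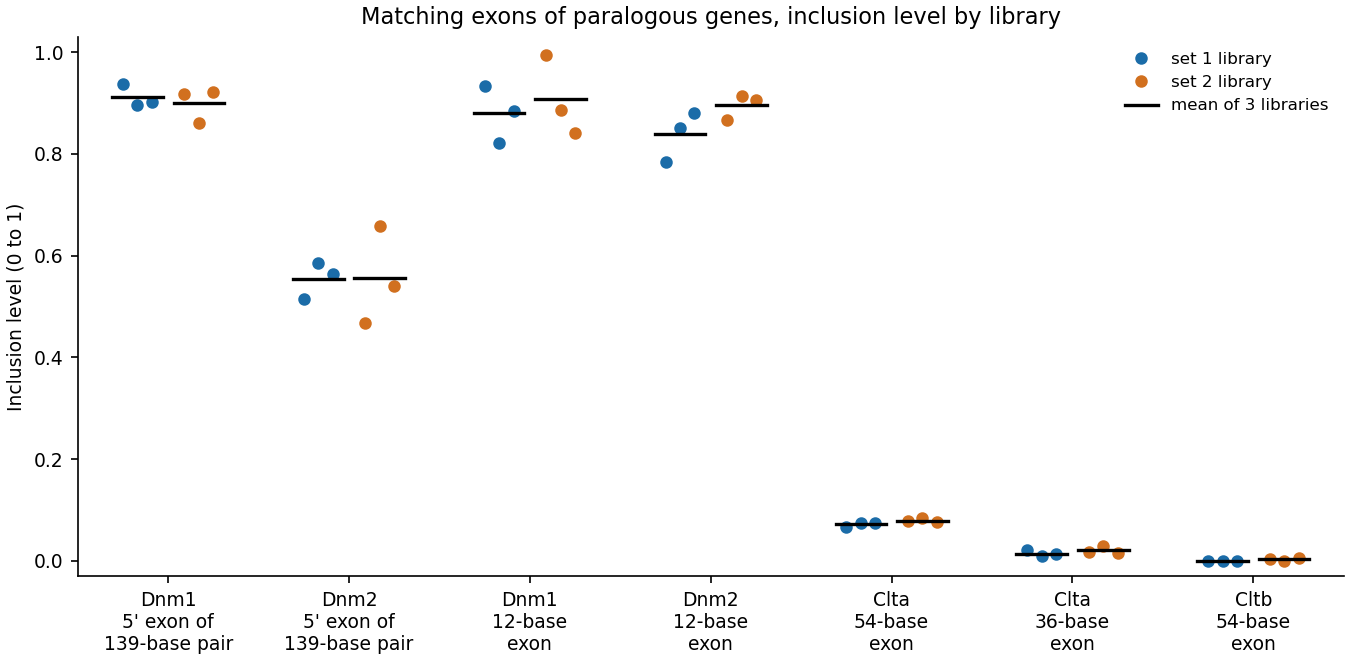
Inclusion level in each of the 6 libraries (points; bars are means of 3 libraries) for matching exons of Dnm1 and Dnm2 and of Clta and Cltb. The exon nearer the 5′ end of the 139-base pair lies between 0.861 and 0.937 in Dnm1 and between 0.467 and 0.659 in Dnm2, and the 54-base exon of Cltb lies at or below 0.005.

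The end of the Dnm1 transcript, which codes for the proline-rich tail that partners bind, held the event of Dnm1 called in the authors' deposited table. It is a 37-base exon (chr2:32310451-32310487), of which 19 bases are coding and the others follow the end of the reading frame. Its coding bases are shown in capitals after 12 bases of the exon before it, because this is where the call lies.
Dnm1 37-base exon, coding bases: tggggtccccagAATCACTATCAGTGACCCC
The exon had 8, 3 and 3 inclusion reads in set 1 beside 37, 11 and 34 skipping reads, and 0, 0 and 1 inclusion reads in set 2 beside 32, 20 and 29. Its levels were 0.148, 0.18 and 0.066 in set 1 and 0, 0 and 0.027 in set 2, without overlap. The means were 0.131 ± 0.0588 (SD, n = 3) and 0.009 ± 0.0156, a difference of 0.12. The adjusted p was 0.00434 in the authors' deposited table, while the quasi-binomial test gave p = 0.0233 and an adjusted p of 0.746. Without library 2 of set 1 the difference was 0.098, under the minimum for a call. With 15 inclusion reads in all, single libraries carried wide exact 95% intervals, from 0.0379 to 0.454 in library 2 of set 1 and from 0 to 0.14 in library 2 of set 2; intervals and limits here cover counting error only. The same exon is listed again with a next exon that starts 3 bases further on, and there it stood at 0.029, 0.028 and 0.199 in set 1 and 0.044, 0.026 and 0.118 in set 2, which overlap (quasi-binomial p = 0.788). With another next exon it had 14 reads in set 1 and 23 in set 2, too few to test, with levels of 0.763, 0.168 and 0.707 against 0.195, 0 and 0.139.

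The sets overlapped in the other choices at this end of Dnm1. An alternative acceptor that lengthens the last exon by 850 bases (chr2:32309638-32310487) was used at 0.178, 0.371 and 0.16 in set 1 and 0.273, 0.13 and 0.205 in set 2. A donor that lengthens an earlier exon by 26 bases (chr2:32312684-32312709) was used at 0.823, 0.826 and 0.794 against 0.862, 0.821 and 0.805. Unadjusted p-values of the quasi-binomial test for these were 0.82 and 0.563. Set against the shortest last exon, acceptors that add 573 and 1423 bases had means of 0.963 and 0.959 in set 1. In set 2 their means were 0.925 and 0.911. Library 2 of set 1 lay below every library of set 2 for the first acceptor, at 0.914, and among them for the second, at 0.905. Their quasi-binomial p-values were 0.0732 and 0.0746, and both events rest on the same 25 reads of the shorter form. Over its 16 tested events Dnm1 had 13 with differences under 0.05.

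**Figure D3:**
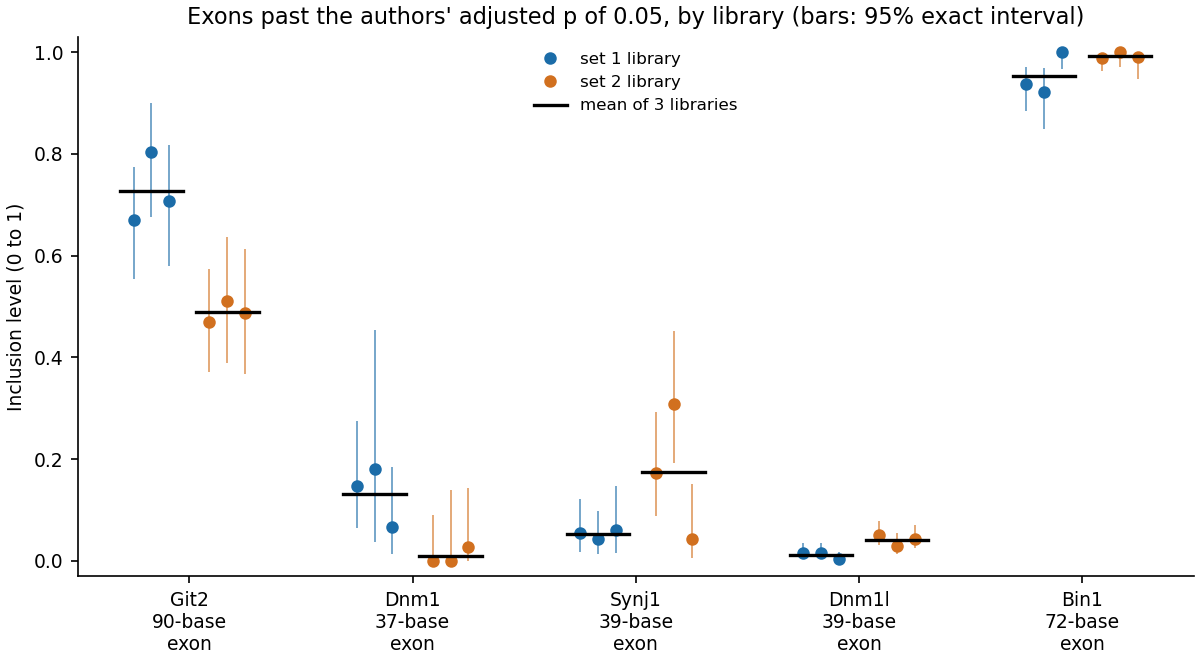
Inclusion level by library, with exact 95% intervals from the read counts, for the 5 exons with an adjusted p under 0.05 in the authors' deposited table. The sets do not overlap for the exons of Git2, Dnm1 and Dnm1l, and for Synj1 library 3 of set 2, at 0.044, lies among the libraries of set 1.

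Dnm1l (chr16:16312230-16358959, minus strand) is known for short alternative exons in its GTPase domain and in the variable region. The first is a 39-base exon (chr16:16342697-16342735, exon 3 of its transcript) and the second a 33-base exon (chr16:16318445-16318477); both are coding and of whole codons. They are shown in capitals with 12 bases of each neighbouring exon, since they are the alternative exons of this gene.
Dnm1l 39-base exon: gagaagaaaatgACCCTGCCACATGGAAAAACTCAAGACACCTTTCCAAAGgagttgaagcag
Dnm1l 33-base exon: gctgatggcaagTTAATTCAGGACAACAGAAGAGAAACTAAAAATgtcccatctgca
The 39-base exon was rare in every library: 0.015, 0.015 and 0.003 in set 1, from 5, 5 and 1 inclusion reads, and 0.051, 0.029 and 0.044 in set 2, from 20, 9 and 15. Set 1 was lower than set 2 in all of its libraries, and the means were 0.011 ± 0.0069 (SD, n = 3) and 0.0413 ± 0.0112. The difference of -0.03, under the minimum for a call, had an adjusted p of 0.00197 in the authors' deposited table and a quasi-binomial p of 0.00258 with an adjusted p of 0.746. With any 1 library left out it lay between -0.037 and -0.026. The 33-base exon was included in about as many transcripts as skipped it, at 0.625, 0.485 and 0.588 in set 1 and 0.652, 0.489 and 0.553 in set 2. Its set means of 0.566 and 0.565 differed far less than its libraries. A donor that adds 18 bases was used at 0.017, 0.027 and 0.055 against 0.021, 0.033 and 0.033.

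The 3 pairs of Dnm1l listed as mutually exclusive had levels near the middle, with set means of 0.502 and 0.552, 0.446 and 0.457, and 0.593 and 0.566. The pair with the most reads on its rarer form, of 121 and 132 bases, stood at 0.49, 0.485 and 0.53 in set 1 and 0.518, 0.545 and 0.593 in set 2. In the best covered skipped-exon event of each exon of these pairs, where the other exon of the pair is a flank, the level was 0.98 or more. A middle level there sets reads of neighbouring exons against each other that nearly every transcript joins. The same held for a pair of Dnm1 at 0.572, 0.715 and 0.657 against 0.563, 0.553 and 0.66, with single exons at 0.976 or more. It also held for a pair of Git2 at 0.671, 0.624 and 0.67 against 0.679, 0.683 and 0.649, with single exons at 0.963 or more. A pair of Itsn1 stood at 0.352, 0.434 and 0.367 against 0.326, 0.371 and 0.386, with single exons at 0.989 or more, though not beside each other. In a Bin1 pair, whose single exons stood at 0.916 or more, the 5′ exon had 0.574, 0.608 and 0.547 in set 1 and 0.537, 0.495 and 0.524 in set 2, which do not overlap (quasi-binomial p = 0.0736). In the pair of Itsn1 and the 139-base pairs of Dnm1 and Dnm2, no listed skipped-exon event has both exons of the pair, so those levels do not show them joined.

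The clathrin light chains trim the coat and bind the heavy chain; neurons are known to add inserts to both. Clta (chr4:44004452-44032846, plus strand) has a 54-base and a 36-base coding exon at chr4:44030215-44030268 and chr4:44031400-44031435, and Cltb (chr13:54592401-54611344, minus strand) has a 54-base one at chr13:54597026-54597079. The matching exons are shown with their 17 differing bases in capitals; the other 37 of 54 (68.5%) are shared.
Clta 54-base exon: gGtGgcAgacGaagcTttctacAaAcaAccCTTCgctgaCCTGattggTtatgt
Cltb 54-base exon: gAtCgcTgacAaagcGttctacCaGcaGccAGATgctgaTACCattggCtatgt
The 54-base exon of Clta was included at 0.066, 0.074 and 0.075 in set 1 and 0.078, 0.084 and 0.076 in set 2. The sets did not overlap, but the difference was -0.01 and the quasi-binomial p 0.575. In Cltb the exon had 2 of 582 reads in set 2 and 0 of 532 in set 1, where a share of up to 0.564% is still possible. The Clta exon lay above the Cltb exon in all 6 libraries. The 36-base exon of Clta stood at 0.021, 0.009 and 0.013 in set 1 and 0.017, 0.03 and 0.015 in set 2 when spliced straight from the exon before both inserts. When it followed the 54-base exon its levels were 0.186, 0.047 and 0.044 in set 1 and 0.202, 0.111 and 0.059 in set 2, higher than the former in each library. Listed as a pair, the 54-base exon took 0.763, 0.895 and 0.862 of the choice in set 1 and 0.828, 0.748 and 0.849 in set 2. The only other tested exon of Cltb, of 112 bases, was included at 1 in every library but libraries 2 and 3 of set 2, at 0.995 and 0.986. Both sets thus held mostly light chains without inserts, and neither test nor the authors' deposited table called any of the 8 events of Clta and Cltb.

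Synj1 (chr16:90936092-91011308, minus strand), which strips phosphoinositides during uncoating, had the call with the lower level in set 1. It is a 39-base coding exon of 13 codons (chr16:90947015-90947053), shown in capitals between 12 bases of each neighbour because of that call.
Synj1 39-base exon: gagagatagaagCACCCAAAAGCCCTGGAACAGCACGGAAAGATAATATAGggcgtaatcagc
It had 5, 5 and 4 inclusion reads beside 70, 89 and 50 skipping reads in set 1, and 11, 18 and 2 beside 42, 32 and 35 in set 2. The levels were 0.054, 0.043 and 0.06 in set 1 and 0.173, 0.309 and 0.044 in set 2, so that library 3 of set 2 was as low as set 1. The means were 0.0523 ± 0.0086 (SD, n = 3) and 0.175 ± 0.133, a difference of -0.12. The adjusted p was 0.0315 in the authors' deposited table and 0.746 in the quasi-binomial test (p = 0.00311). Without library 2 of set 2 the difference was -0.06, and without library 3 of set 2 it was -0.19. A 24-base exon (chr16:90971564-90971587) was used at 0.619, 0.528 and 0.699 in set 1 and 0.683, 0.695 and 0.48 in set 2, with means of 0.615 and 0.619. An acceptor that adds 9 bases (chr16:90974067-90974075) was used at 0.254, 0.223 and 0.138 against 0.101, 0.095 and 0.217 (quasi-binomial p = 0.0954). Of the 14 events of Synj1 only 7 had the reads to be tested, and its junctions were the least covered of the 10 genes.

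Git2 held the largest called difference. Git1 and Git2 turn off Arf GTPases and, with their PIX partners, gather signalling proteins at focal adhesions and synapses. In Git2 (chr5:114727407-114775517, minus strand) the exon is 90 bases long, 30 codons, all coding (chr5:114737348-114737437). It is shown in capitals between 12 bases of each neighbour because it carries this finding.
Git2 90-base exon: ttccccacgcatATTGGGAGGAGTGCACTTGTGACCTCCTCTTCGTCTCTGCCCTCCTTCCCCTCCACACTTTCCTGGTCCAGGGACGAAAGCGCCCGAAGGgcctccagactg
It had 71, 65 and 62 inclusion reads beside 22, 10 and 16 skipping reads in set 1, and 61, 45 and 44 beside 43, 27 and 29 in set 2. The levels were 0.669, 0.803 and 0.708 in set 1 and 0.47, 0.511 and 0.487 in set 2, with no overlap. In single libraries the exact 95% intervals ran from 0.553 to 0.899 in set 1 and from 0.368 to 0.636 in set 2. The means were 0.727 ± 0.0689 (SD, n = 3) and 0.489 ± 0.0206, a difference of 0.24, which is more than the spread within either set. The adjusted p was 0.00381 in the authors' deposited table. The quasi-binomial test gave p = 0.00146 and an adjusted p of 0.66, the smallest of the 106 events, and limma on logit levels p = 0.00543 (adjusted 0.773). With the dispersion taken along the total count instead, the adjusted p was 0.0135 and the exon was called; leaving out any 1 library left the difference between 0.2 and 0.27, with adjusted p-values from 0.618 to 0.854.

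No other event of Git2 was called in the authors' deposited table, and the quasi-binomial test and limma called none. A 150-base exon upstream of it in the transcript (chr5:114743731-114743880) was included at 0.513, 0.541 and 0.519 in set 1 and 0.656, 0.534 and 0.458 in set 2. A form of that exon 105 bases long stood at 0.387, 0.363 and 0.266 against 0.475, 0.371 and 0.297. An acceptor that adds 3 bases is listed with 2 upstream exons, each time at a depth too low to test. Joined to a 6-base exon it was used at 0.455, 0.409 and 0.116 against 0.552, 0.497 and 0.236. Joined to the 46-base exon before that one it was used at 0.297, 0.152 and 0.597 against 0.33, 0.747 and 0.888, a difference of -0.31 on a mean of 13.67 reads. The 6-base exon itself, also untested, was included at 0.624, 0.345 and 0.693 against 0.772, 0.629 and 0.931, a difference of -0.22 on a mean of 19.5 reads. Its skipping reads are those of the acceptor event just before, so these differences are not separate observations. Listed again with the next exon lengthened by the 3 bases, it stood at 0.763, 0.685 and 0.244 against 0.886, 0.392 and 0.377. The difference there was 0.01 on a mean of 14.83 reads. The sets overlapped in each of these events. Adjusted p-values in the authors' deposited table were 1.0 for the acceptor joined to the 6-base exon and 0.364 for it joined to the 46-base exon. For the 6-base exon as first listed the value was 0.4. In Git1 (chr11:77493562-77507786, plus strand) a 27-base coding exon (chr11:77502829-77502855) was nearly always included, at 0.965, 0.926 and 0.966 in set 1 and 0.974, 0.96 and 0.978 in set 2. A 43-base exon before it was included at 1 in every library but library 2 of set 2, at 0.942. Listed as a pair, the 43-base exon took 0.081, 0.151 and 0.1 against 0.084, 0.12 and 0.046. As single exons both had set means of 0.952 or more, and 1 listed skipped-exon event joins them. The low pair level therefore does not show the 43-base exon as rarely used. The 89-base intron of Git1 with the most retained reads stood at 0.013, 0.047 and 0.031 against 0.026, 0.047 and 0.043. None of the 8 events of Git1 was called, and their differences ran from -0.02 to 0.03.

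Itsn1 (chr16:91729281-91920597, plus strand) joins dynamin, synaptojanin and the adaptors through its SH3 domains. A 15-base coding exon (chr16:91842628-91842642), known as a neuronal insert in the first SH3 domain, is shown in capitals for its near absence here.
Itsn1 15-base exon: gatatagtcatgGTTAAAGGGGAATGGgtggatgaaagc
Its levels were 0.013, 0.013 and 0.012 in set 1 and 0, 0.014 and 0 in set 2, from 6 of 428 and 2 of 448 reads. A 206-base exon had the smallest p of the gene (quasi-binomial p = 0.241), at 1, 0.993 and 0.993 in set 1 and 1 in all of set 2. A 46-base exon was included at 0.939, 0.938 and 0.935 against 0.904, 0.98 and 0.949. All 14 events of Itsn1 were tested, none was called, and each differed by less than 0.05.

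Bin1 (chr18:32377230-32435737, plus strand) bends membrane and binds dynamin and clathrin. Its sequence is not shown. A 93-base coding exon was included at 0.375, 0.213 and 0.274 in set 1 and 0.352, 0.295 and 0.272 in set 2. A run of exons in the second part of the gene was skipped in part. The first 108-base exon there stood at 0.864, 0.765 and 0.696 against 0.779, 0.649 and 0.863, a 24-base exon at 0.482, 0.442 and 0.65 against 0.602, 0.722 and 0.464, and the second 108-base exon at 0.208, 0.126 and 0.168 against 0.135, 0.165 and 0.412. Each of these varied between libraries of a set by more than the set means differed. When the second 108-base exon was set against transcripts that also lack the 72-base exon after it, its levels were 0.519, 0.368 and 0.344 against 0.654, 0.389 and 1, the difference of -0.27 in that event being the largest of any event tested here (quasi-binomial p = 0.102). The 72-base exon (chr18:32431671-32431742) had the Bin1 event with an adjusted p of 0.0395 in the authors' deposited table. It was included at 0.937, 0.922 and 1 in set 1 and 0.989, 1 and 0.99 in set 2, from 16 skipping reads of 496 and 3 of 612 (quasi-binomial p = 0.0198, adjusted p = 0.746). Its difference of -0.04 became -0.06 without library 3 of set 1 and -0.02 without library 2 of set 1. Listed with other upstream exons, the same exon differed by -0.015, -0.042 and -0.002, with quasi-binomial p-values of 0.735, 0.0723 and 0.569. Of the 18 tested events of Bin1, 14 differed by less than 0.05.

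**Figure D4:**
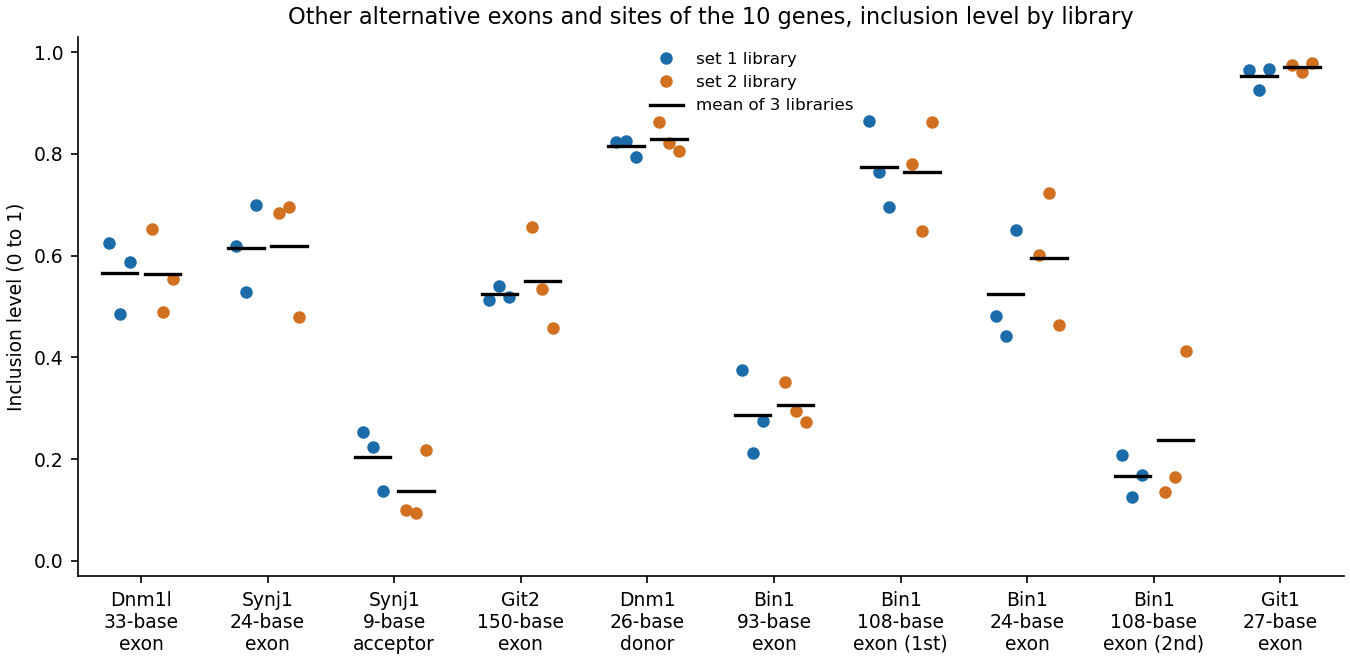
Inclusion level by library (points; bars are means of 3 libraries) for other alternative exons and splice sites of Dnm1l, Synj1, Git2, Dnm1, Bin1 and Git1. The sets overlap for all of them, and in the second 108-base exon of Bin1 the libraries of set 2 reach from 0.135 to 0.412.

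The amount of each transcript was followed by its junction total, the CPM of reads on both forms of its best covered event. The measure compares libraries, not genes, and a lower total can mean less RNA per cell or fewer cells that make it, which cannot be told apart in bulk RNA. None of the 10 genes was called by limma on log2(CPM + 1), and none had an unadjusted p under 0.05, beside 88 of 8281 genes called (1.06%) and 9.44% at an unadjusted p under 0.05. Synj1 was at 25.94, 37.9 and 35.35 CPM in set 1 and 19.89, 24.76 and 30.05 in set 2, a log2 difference of 0.40 ± 0.20 (SE, adjusted p = 0.588). Git2 was the only member without overlap, beside 14.1% of all genes, at 30.29, 36.48 and 37.56 in set 1 and 43.06, 39.02 and 46.06 in set 2. Its log2 difference was -0.29 ± 0.16 (SE, adjusted p = 0.623). Dnm2 followed with -0.27 ± 0.16 (adjusted p = 0.67). With reads summed over all events of a gene instead, the log2 differences were smaller, at 0.31 for Synj1, -0.13 for Git2 and -0.17 for Dnm2. Dnm1 varied most with the library: library 1 was high in both sets, at 65.53 beside 36 and 37.07 in set 1 and at 73.71 beside 40.42 and 37.69 in set 2. The log2 differences of Dnm1, Dnm1l, Git1, Clta, Cltb, Itsn1 and Bin1 lay between -0.12 and 0.09, beside a median of 0.01 over all genes.

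**Figure D5:**
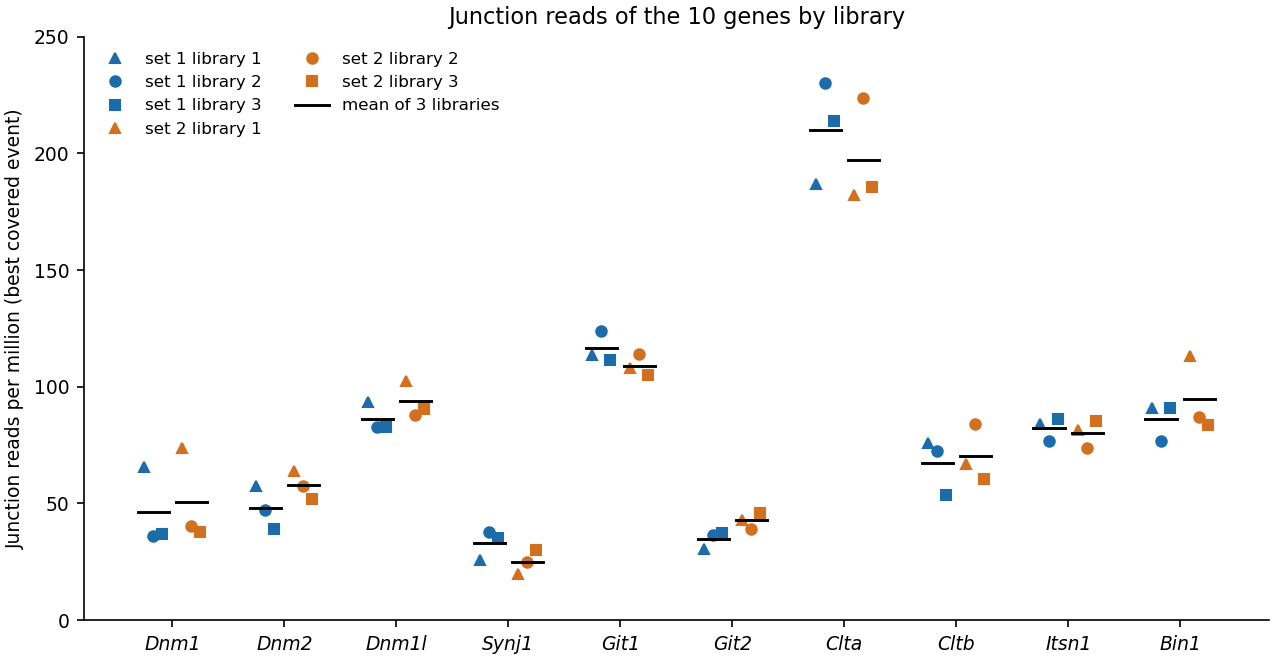
Junction reads (CPM) of the best covered event of each of the 10 genes, by library (marker shape gives the place of the library in its set, bars are means of 3 libraries). Git2 is lower in set 1 in every library, and Dnm1 is high in library 1 of both sets, at 65.53 and 73.71.

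Other genes of the same routes were followed in 5 lists of 128 genes, of which 105 were in the table with 740 events. The authors' deposited table calls 2 of these events (0.27%), both higher in set 1, beside 0.645% over all genes. In Numb, an adaptor that also restrains Notch, a 33-base exon (chr12:83825259-83825291) stood at 0.306, 0.432 and 0.391 in set 1 and 0.168, 0.158 and 0.171 in set 2, with an adjusted p of 0.00478 in the authors' deposited table and 0.746 in the quasi-binomial test. In Cttn, which binds branched actin at the bud neck, a 111-base exon (chr7:144450978-144451088) stood at 0.826, 0.892 and 0.826 against 0.753, 0.732 and 0.732, with adjusted p-values of 0.000485 in the authors' deposited table and 0.367 in the quasi-binomial test. The sets did not overlap for either exon. The quasi-binomial test called none of the 677 tested events of the 5 lists, beside 0.0279% over all genes. It gave 28 of them (4.14%) an unadjusted p under 0.05, beside 3.8% over all genes. Limma applied to logit levels, which called nothing over all genes, gave 27 of them that p, beside its 3.3% over all genes. Sets did not overlap in 45 events (6.65%), beside 5.55% over all genes.

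By list, the coat and adaptor genes had 35 of 40 in the table and 1 of 276 events called in the authors' deposited table, that of Numb. The genes of membrane bending, scission and actin had 24 of 30 and 1 of 159 events called there, that of Cttn. The genes of uncoating and phosphoinositides (15 of 19, 125 events), the partners of GIT and PIX (15 of 19, 108 events) and the genes of mitochondrial and peroxisomal division (16 of 20, 72 events) had none, and in each of the 3 the quasi-binomial test gave no adjusted p below 0.746. Unadjusted p-values under 0.05 in that test numbered 9, 7, 4, 5 and 3 in the order of these lists. Junction totals could be measured for 100 of the genes. Limma called none of them and gave 7 an unadjusted p under 0.05, beside 1.06% and 9.44% over all genes. Each list's median log2 difference lay between -0.03 and 0.01.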

How the data were processed

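Per the labels' protocols, total RNA was extracted with Trizol and sequenced from NEBNext Ultra libraries of 3 wild-type and 3 knockout N2a samples. The submitters' processing notes name Bowtie2 2.2.3, HISAT2 2.1.0, HTSeq 0.6.0 and mm10, without roles; the version and annotation of the splicing caller were not given in the sources used here. The deposited table is laid out as rMATS junction counts, per the file headers: for each event the authors gave read counts, inclusion levels (a fraction), p-values and other listed values, 3 libraries to a cell. All per-library columns were used.

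Recomputed levels matched the deposited ones within 0.0005. Events averaging 20 or more reads over the libraries were tested in R 4.3.3 with limma 3.58.1: a quasi-binomial deviance test with dispersion moderated along the rarer form's count, never below 1, fitted on events with 5 or more such reads and adjusted over all kinds. Of the 3 dispersion forms run, this one was kept as fixed in the plan, with the counts of earlier runs known. On simulated skipped exons it recovered 0, 0, 11 and 29 of 50 changes of 0.1, 0.2, 0.3 and 0.4, with 1 false call among 28647 exons. On the same exons the dispersion along the total count recovered 3, 13, 36 and 49 with 6 false calls, and that along the rarer form from 1 read 2, 7, 19 and 42 with 112. In that simulation the dispersion kept gave an unadjusted p under 0.05 to 3.27% of unchanged exons. Among those whose less used form reached 5 reads, the share was 7.3%, so under that assumed spread unadjusted p-values of such exons came out too small. Whether this holds at the spread of the real libraries was not tested. The dispersion along the total count gave 11.6% there, and that along the rarer form from 1 read 10.5%. Calls needed an adjusted p under 0.05 and a change of 0.10 or more. Junction totals used limma with a trend on log2(CPM + 1). The count model planned for them was not run, although the list-valued cells were split into counts per library. On simulated totals, whose spread was also assumed, limma recovered 17 and 43 of 50 changes of 1.5-fold and 2-fold among 8281 genes, with 5 false calls.

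For mutually exclusive pairs the inclusion form is the exon nearer the 5′ end: its counts equalled those of the matching skipped exon in 11 of 11 comparable pairs, against 0 of 11 for the other. Exon sequences come from GENCODE vM21 transcripts (GRCm38, the assembly of mm10); all 10 gene IDs matched and all 128 events lay inside their genes. Intervals are exact Clopper-Pearson intervals of the read share, converted to levels by form length.

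For each gene the text describes events called in the authors' deposited table, the event of smallest p and, for each kind, the event with the most reads on its rarer form (20 or more); further events named beside them, and the comparison of paralogues, were chosen after their values were seen. Members and gene lists were chosen with earlier results of these data known. One marker of another cell type is not reported here. Alternatives covered the dispersion, test, count minimum, minimum change, normalization, pseudocount, count per gene and each library left out.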

Additional observations from a re-analysis of the deposited data

How the results depend on the processing

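No paired analysis was possible because the columns of the table carry no replicate numbers. The planned count models on paired columns and on junction totals (edgeR and DESeq2, with TMM) were not run. Library sums were used throughout, and median-ratio size factors and voom weights were added after seeing the data. With the dispersion along the total count the quasi-binomial test called 1 event of the 10 genes (Git2) and 2 of the other listed genes (Cttn and Numb); with it along the rarer form from 1 read, with other count minimums or no minimum change, and with limma on logit levels, it was 0 and 0. Leaving out 1 library gave 0 events of the 10 genes each time and 0 to 1 of the other genes, that 1 being an exon of Scrib without library 1 of set 1. Junction totals called by limma were 0 of the 10 genes under every alternative run, and 0 to 3 of the other genes, the 3 being Ppfia2, Ston2 and Wipf3 without library 1 of set 1. The authors' deposited table gave 1 event of the 10 genes at a change of 0.20 or more, 5 with no minimum change, 2 at an adjusted p under 0.01 and 3 at a mean count of 20 or more. Over all genes the quasi-binomial calls were 11, 13 and 64 under the 3 dispersions, and 24 with no minimum change; leaving out 1 library gave 2 to 19 events, and 25 (without library 2 of set 1) to 286 (without library 1 of set 1) junction totals beside 88. Of 401 values of 31 described events 22, in 13 events, changed sign, and of 120 junction totals 7, in 4 genes, each time with 1 library left out; the cause was not tested.

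With 1 library left out, differences in level ranged from -0.0628 to 0.0182 for the 93-base exon of Bin1, -0.0337 to 0.0718 for the 850-base acceptor of Dnm1, -0.0272 to 0.0013 for the 26-base donor of Dnm1, -0.0605 to 0.017 for the 12-base exon of Dnm1, -0.007 to 0.012 for the 18-base donor of Dnm1l, -0.0365 to 0.045 for the 33-base exon of Dnm1l. They ranged from -0.0455 to 0.0505 for the pair of Dnm2 with a 139-base 5′ exon, -0.0167 to 0.0003 for the 89-base retained intron of Git1, -0.026 to 0.0002 for the pair of Git2 with a 134-base 5′ exon, -0.0707 to 0.0283 for the 150-base exon of Git2, -0.0015 to 0.0395 for the pair of Itsn1 with a 167-base 5′ exon, -0.0272 to 0.0108 for the 46-base exon of Itsn1, -0.0737 to 0.0397 for the 24-base exon of Synj1. Log2 differences of junction totals ranged from -0.205 to 0.013 for Bin1, -0.171 to 0.0858 for Cltb, -0.393 to 0.182 for Dnm1, -0.0196 to 0.0877 for Itsn1.

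Of the 128 events 22 were too shallow to test.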

Other observations

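Exons of these genes that were neither nearly always nor nearly never included were short and mostly kept the reading frame. Of 16 skipped exons with a mean level from 0.05 to 0.95, 14 had a length that is a multiple of 3 (87.5%), with a median of 50 bases. Over all genes the share was 49.4% of 4415 exons, with a median of 106 bases. Of 41 exons of the 10 genes with a level over 0.95, 13 kept the frame (31.7%, beside 38.6% over all genes), and of 9 with a level under 0.05, 7 did (77.8%, beside 44.7%). The exons of 1 gene share transcripts and lengths are not replicates, so these shares are descriptions and no test was made.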
